A study of Mus musculus with 8 samples.

Results

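The genes described here are the cyclins, the cyclin-dependent kinases (CDKs), the CDK inhibitors and the enzymes that switch CDKs on and off, namely the phosphatases Cdc25a, Cdc25b and Cdc25c and the kinases Wee1 and Pkmyt1. They were taken by gene symbol from the deposited expression table, which gave 55 gene models of 54 genes among 56324 models in all. Ccnt1 was the gene with 2 models. All 55 models passed the filter on low values, which kept 28735 models. The libraries came from C57BL/6 males aged 12 weeks that carried the genotype Sam68 -/-, so that spermatocytes and spermatids alike lacked an intact Sam68 gene by label. There were 4 libraries of each cell type, separated by sedimentation at unit gravity, and the comparison was spermatids against spermatocytes. No library of another genotype entered, so nothing here measures an effect of the deletion. The labels name no animals, and p-values therefore measure the spread between these libraries, which may be technical.

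A CDK is active once a cyclin has bound it, and cyclins are made and destroyed at set points of the cell cycle. Wee1 and Pkmyt1 hold CDK1 and CDK2 inactive by phosphorylation, Cdc25 phosphatases remove those phosphates, and the inhibitors of the Cip/Kip and INK4 families bind the kinases or their complexes. In male meiosis the spermatocyte replicates its DNA, passes a long prophase and divides in quick succession into round spermatids, which leave the cell cycle for good. Another set of cyclins and CDKs does not time the cell cycle but acts on RNA polymerase II and on splicing.

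Read totals were 49000266 to 93975960 per library. Khdrbs1, the gene of Sam68, was at 3421 to 4985 normalized counts in spermatocytes and 625 to 1129 in spermatids, summed over a model that may extend past the deletion, so it does not check the genotype. Spermatid markers were called higher in 10 of 10 cases, and spermatocyte markers lower in 6 of 9. Sycp1, Sycp3 and Hormad1 were not called. Spermatocyte library 4 was low in Sycp1 (1653 against 12680 to 26690 in the others), Sycp3 (3303 against 15595 to 17490), Hormad1 and Sycp2. It was highest in Piwil1, Mlh3 and Pou5f2, and how its cells differ was not tested. Sertoli cell markers were lower in 9 of 10 cases and summed to 25308 to 128138 in spermatocyte against 1405 to 4613 in spermatid libraries, with Inhba the marker at 0 in some libraries. Macrophage and blood markers were higher in 7 of 8 tested cases, with sums of 378 to 721.3 and 3014 to 6016, and Hbb-bs and Hba-a1 at 0 in some libraries. Leydig markers were lower in 6 of 6 matched cases and peritubular markers higher in 5 of 6. Spermatogonial markers were higher in 3 and lower in 2 of 10. In such bulk samples, fewer cells of a type and less RNA per cell cannot be told apart.

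RNA of Cdk1, Cdk2 and Cdk4 was lower in spermatid than in spermatocyte libraries, as was that of the inhibitor genes Cdkn1b, Cdkn2c and Cdkn2d. RNA of Ccnd3, Ccna2, Wee1 and all Cdc25 genes was higher. Cdk4 and Cdkn1b were highest in spermatocyte library 3, where the Sertoli sum was also highest. Without that library the log2 change of Cdk4 was -0.98. A model was called where limma's adjusted p was below 0.05 and the log2 change, up or down, was 1 or more. Of the 55 models 18 (32.7%) rose and 13 (23.6%) fell in spermatids, and 24 were not called. The balance turned to 15 higher and 19 lower with equal total reads and to 14 and 19 with quantile normalization. Over all 28735 models tested 62.3% were called, 32.5% higher and 29.8% lower, so the members' shares lay near the background. All 4 spermatid values lay above all 4 spermatocyte values in 18 members and below them in 16, against 34.2% and 32.2% of all models. The median log2 fold change was 0.03 over the members and -0.01 over all models. With equal total reads the members' median was -0.405 and with quantile normalization -0.345, beside -0.44 and -0.36 over all models, and no called member changed its direction under any alternative.

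**Figure D1:**
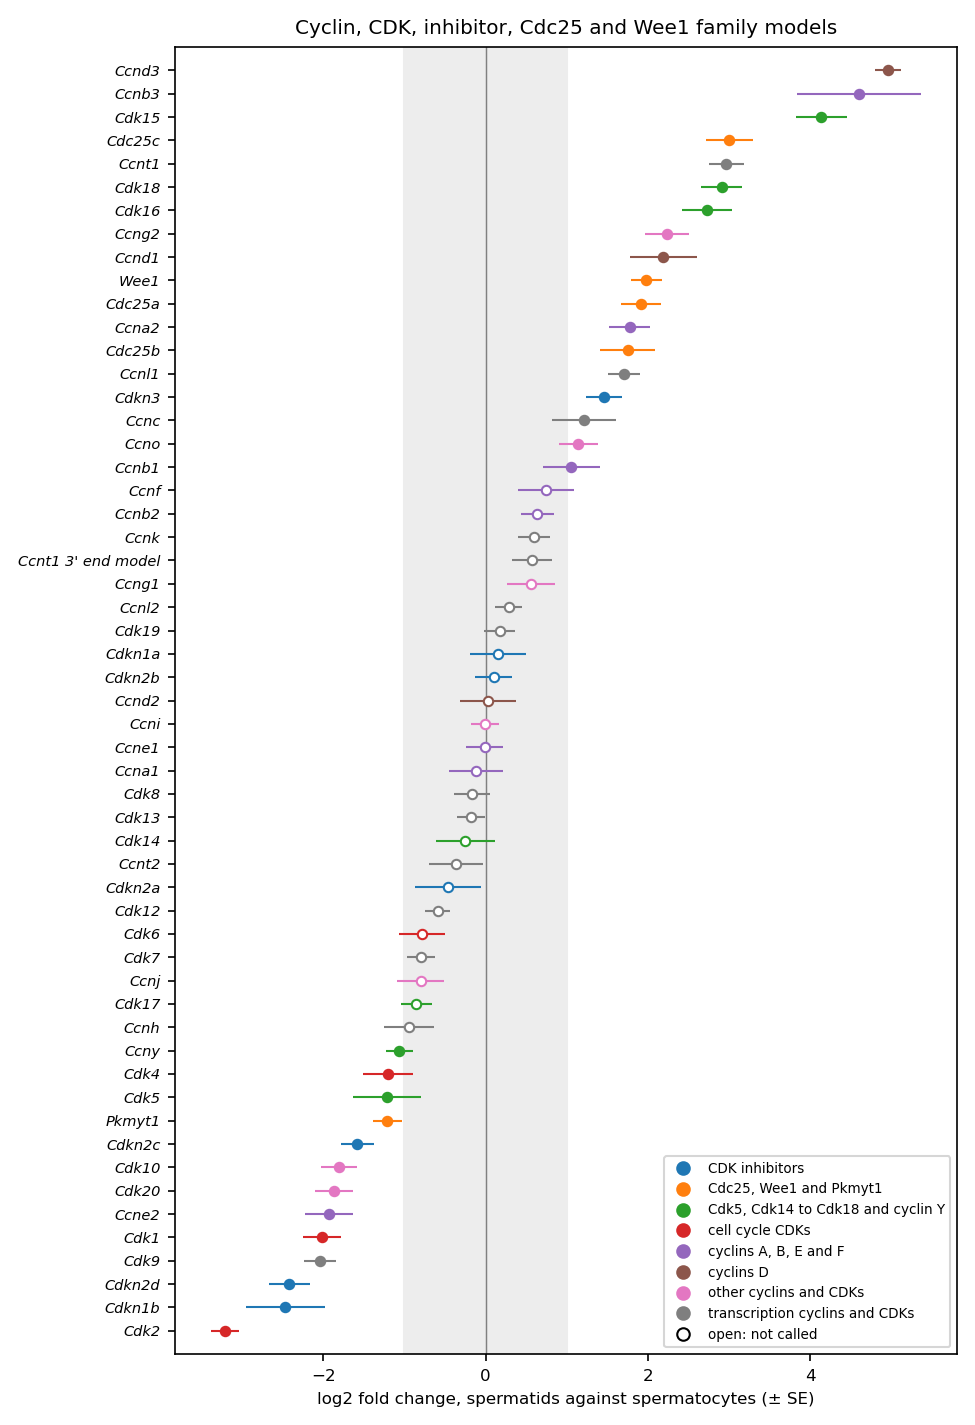
Log2 fold change with its standard error for all 55 models, spermatids against spermatocytes (n = 4 libraries each), ordered by size and coloured by role, with filled points for called models and a grey band between -1 and 1. Cdk2 lies lowest at -3.21 and Ccnd3 highest at 4.95.

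Of the cell cycle kinases Cdk1, Cdk2, Cdk4 and Cdk6, 3 fell and Cdk6 was not called. Cdk2, whose loss arrests mouse spermatocytes in prophase (chromosome 10, 128697939 to 128705051, minus strand of mm10), had 6775, 6913, 5879.6 and 8185 normalized counts in libraries 1 to 4 of spermatocytes and 902, 726, 713 and 653 in those of spermatids. The lowest spermatocyte library held over 6 times the highest spermatid library. Its mean fell 9.27-fold (log2 change -3.21, SE 0.18, adjusted p = 1.2e-08 by limma). Cdk1, the kinase of entry into division (chromosome 10, 69336635 to 69352939, minus strand), had 3908, 3968, 2353 and 3723 in spermatocyte libraries and 1144, 874, 668 and 761 in spermatid libraries. Spermatocyte library 3 stood below the other 3, and the groups did not overlap. The mean of Cdk1 fell 4.05-fold (log2 change -2.01, SE 0.23, adjusted p = 6.2e-06 by limma). Cdk4, a partner of D cyclins, went from 1097 ± 458 to 456 ± 116 (± SD of 4 libraries each; log2 change -1.20, SE 0.31, adjusted p = 0.0038 by limma). It was highest in spermatocyte libraries 3 and 4, where the Sertoli sum was also highest, and was not called without library 3 (-0.98), without libraries 3 and 4 (-0.68) or after the correction for GC content (-0.94). The part of Sertoli RNA in this fall was not tested, nor was that of Tspan31, whose overlapping model fell by 2.55 on the log2 scale. Cdk6, the other partner of D cyclins, had a log2 change of -0.78 (SE 0.28, adjusted p = 0.023 by limma), short of the fold threshold, which it crossed with equal total reads (-1.22), quantile normalization (-1.16) and without spermatocyte library 3 (-1.01).

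Among cyclins A, B, E and F 3 rose, 1 fell and 4 were not called. Ccna1, the germ cell A cyclin that mouse spermatocytes need for the first meiotic division (chromosome 3, 55045469 to 55055055, minus strand), had 23684, 22254, 8034 and 25279 normalized counts in libraries 1 to 4 of spermatocytes and 13016, 23079.8, 17029.9 and 15135 in those of spermatids. The groups overlapped widely, and spermatocyte library 3 was the lowest of all 8. No call was made (log2 change -0.12, SE 0.34, adjusted p = 0.77 by limma). Ccna2, the A cyclin of most dividing cells (chromosome 3, 36564866 to 36571999, minus strand), had 159, 151, 218 and 248 in spermatocytes and 904, 629.9, 551 and 577 in spermatids. Every spermatid library exceeded every spermatocyte library, and the mean rose 3.43-fold (log2 change 1.78, SE 0.25, adjusted p = 4.5e-05 by limma). The Ccna2 model overlaps that of Exosc9, which had means of 2505 in spermatocytes and 2008 in spermatids. Spermatid library 1, with the highest value of Ccna2, also had the highest sum of spermatogonial markers among spermatid libraries (5591 against 2776 to 3263 in the other 3). In spermatocyte libraries, where Ccna2 was lower, these sums were 5147 to 8973. The part of Exosc9 reads or of spermatogonial RNA in the rise of Ccna2 was not tested.

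None of the 3 B cyclins, which bind CDK1, was called lower. Ccnb1 (chromosome 13, 100778731 to 100786509, minus strand) had 1193, 922, 337 and 1080.0 normalized counts in spermatocyte libraries and 1728, 2145, 1471 and 1375 in spermatid libraries, without overlap. Its call was marginal (log2 change 1.06, SE 0.35, adjusted p = 0.017 by limma). It was lost with quantile normalization (0.76), equal total reads (0.62), edgeR (0.93), DESeq2 (0.93) and the GC correction (0.85), and without spermatocyte library 3 (0.64), without spermatocyte libraries 3 and 4 (0.66) or without spermatid library 2 (0.93). Ccnb2 (chromosome 9, 70407689 to 70421554, minus strand) had 12183, 12359, 8418 and 14359.9 in spermatocytes and 14238, 21579, 19583 and 17532 in spermatids, where spermatid library 1 lay under spermatocyte library 4. It passed the adjusted p but not the fold threshold (log2 change 0.63, SE 0.20, adjusted p = 0.014 by limma). Ccnb3, an X-linked B cyclin (chromosome X, 6979652 to 7041620, minus strand), had 27.4, 0.981, 25.7 and 6.85 in spermatocytes and 508, 118, 221 and 305 in spermatids. Spermatocyte library 2 held 1 read of it, below the floor of 3 reads, and spermatid library 1 held the most. The sums of spermatogonial markers in spermatid libraries 1 to 4 were 5591, 2776, 3189 and 3263, in the same order of libraries as Ccnb3. In spermatocyte libraries, where Ccnb3 was lower, these sums were 5147 to 8973. The part of earlier germ cells in the rise of Ccnb3 was not tested. All 4 spermatid values lay above the spermatocyte values (log2 change 4.60, SE 0.77, adjusted p = 1.6e-04 by limma). The ratio of means was 18.9, and the log2 fold change was 3.80 without spermatocyte library 2 and 3.71 with a pseudocount of 8.

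Of the E cyclins, partners of CDK2, Ccne2 fell and Ccne1 was not called. Ccne2 (chromosome 4, 11190925 to 11204779, plus strand) had 2298, 3274, 4445 and 1759 normalized counts in spermatocyte libraries and 1069, 578, 674 and 667 in spermatid libraries. Spermatocyte libraries spread widely, with library 3 highest and library 4 lowest, and none overlapped the spermatids. Its mean fell 3.94-fold (log2 change -1.93, SE 0.29, adjusted p = 7.0e-05 by limma), and after the GC correction the log2 fold change was -2.83. Ccne1 (chromosome 7, 38097982 to 38107534, minus strand) had 473, 545, 359 and 659.9 and 547, 488, 488 and 452, in the same order. The values of spermatids fell inside the range of spermatocytes (log2 change -0.01, SE 0.23, adjusted p = 0.96 by limma). Ccnf, a cyclin that serves as the substrate receptor of a ubiquitin ligase, was at 573 ± 238 and 901 ± 246 (± SD of 4 libraries each) and was not called (log2 fold change 0.74), except after the GC correction (1.00).

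The promoters of Cdk1, Ccnb1 and Ccnb2 are shown because their proteins form the kinase of division, while the RNA of Cdk1 was called lower and that of Ccnb1 higher, and that of Ccna1 because its RNA is the most abundant of the A and B cyclins per length in spermatocytes. Each runs from 250 bases before to 50 bases after the RefSeq gene start, on GRCm38.p6, read 5′ to 3′ along the gene, and all of them lie on the minus strand. They cover chr10:69352863-69353162, chr13:100786437-100786736, chr9:70421505-70421804 and chr3:55055006-55055305. Capitals mark 2 motifs known from cell cycle promoters, the CCAAT box, which reads ATTGG on the opposite strand, and the cell cycle homology region (CHR). The CHR was searched in the form TTTGAA, which reads TTCAAA on the opposite strand, and in the form that is its own reverse complement, namely TTCGAA. No match to the cAMP response element (TGACGTCA) was found in these 4 windows, and no marked motifs of different kinds overlap.
Cdk1: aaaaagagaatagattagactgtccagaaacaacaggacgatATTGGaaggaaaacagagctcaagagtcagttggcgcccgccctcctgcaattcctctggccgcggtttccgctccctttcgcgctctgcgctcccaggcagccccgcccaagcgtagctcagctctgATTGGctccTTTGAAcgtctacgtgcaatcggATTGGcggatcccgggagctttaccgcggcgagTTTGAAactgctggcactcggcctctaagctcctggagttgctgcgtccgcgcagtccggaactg
Ccnb1: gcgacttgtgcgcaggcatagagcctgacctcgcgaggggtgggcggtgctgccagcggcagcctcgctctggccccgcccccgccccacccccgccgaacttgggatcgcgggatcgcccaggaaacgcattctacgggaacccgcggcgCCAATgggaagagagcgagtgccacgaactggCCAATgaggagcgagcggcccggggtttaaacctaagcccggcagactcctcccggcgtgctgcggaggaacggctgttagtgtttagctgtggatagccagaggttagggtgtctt
Ccnb2: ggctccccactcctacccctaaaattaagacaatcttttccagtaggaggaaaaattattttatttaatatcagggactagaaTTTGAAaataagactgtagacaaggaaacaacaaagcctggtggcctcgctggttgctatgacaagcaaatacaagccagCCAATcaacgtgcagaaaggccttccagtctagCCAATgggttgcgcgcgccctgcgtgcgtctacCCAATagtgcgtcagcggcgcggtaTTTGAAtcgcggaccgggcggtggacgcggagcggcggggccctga
Ccna1: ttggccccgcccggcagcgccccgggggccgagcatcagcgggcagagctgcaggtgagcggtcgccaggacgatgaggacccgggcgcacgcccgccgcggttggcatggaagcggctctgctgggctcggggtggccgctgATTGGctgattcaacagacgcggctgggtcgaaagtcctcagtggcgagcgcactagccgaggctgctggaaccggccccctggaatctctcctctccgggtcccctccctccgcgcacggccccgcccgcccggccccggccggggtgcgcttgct
The windows of Cdk1 and Ccnb2 hold 3 CCAAT boxes and 2 CHR matches each. That of Ccnb1 holds 2 CCAAT boxes and no match to the CHR forms searched, and that of Ccna1 holds 1 CCAAT box. Other forms of the CHR were not searched. A CCAAT box on either strand is held by 37.4% of all 32851 RefSeq promoter windows, a CHR match by 19.2% and the cAMP response element by 1.79%. RefSeq windows were matched for 42 of the 54 genes, 47 windows in all, of which 24 hold a CCAAT box, 8 a CHR match and 2 the cAMP response element. These are matches of letters, and the starts used in germ cells may differ from the RefSeq starts.

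**Figure D2:**
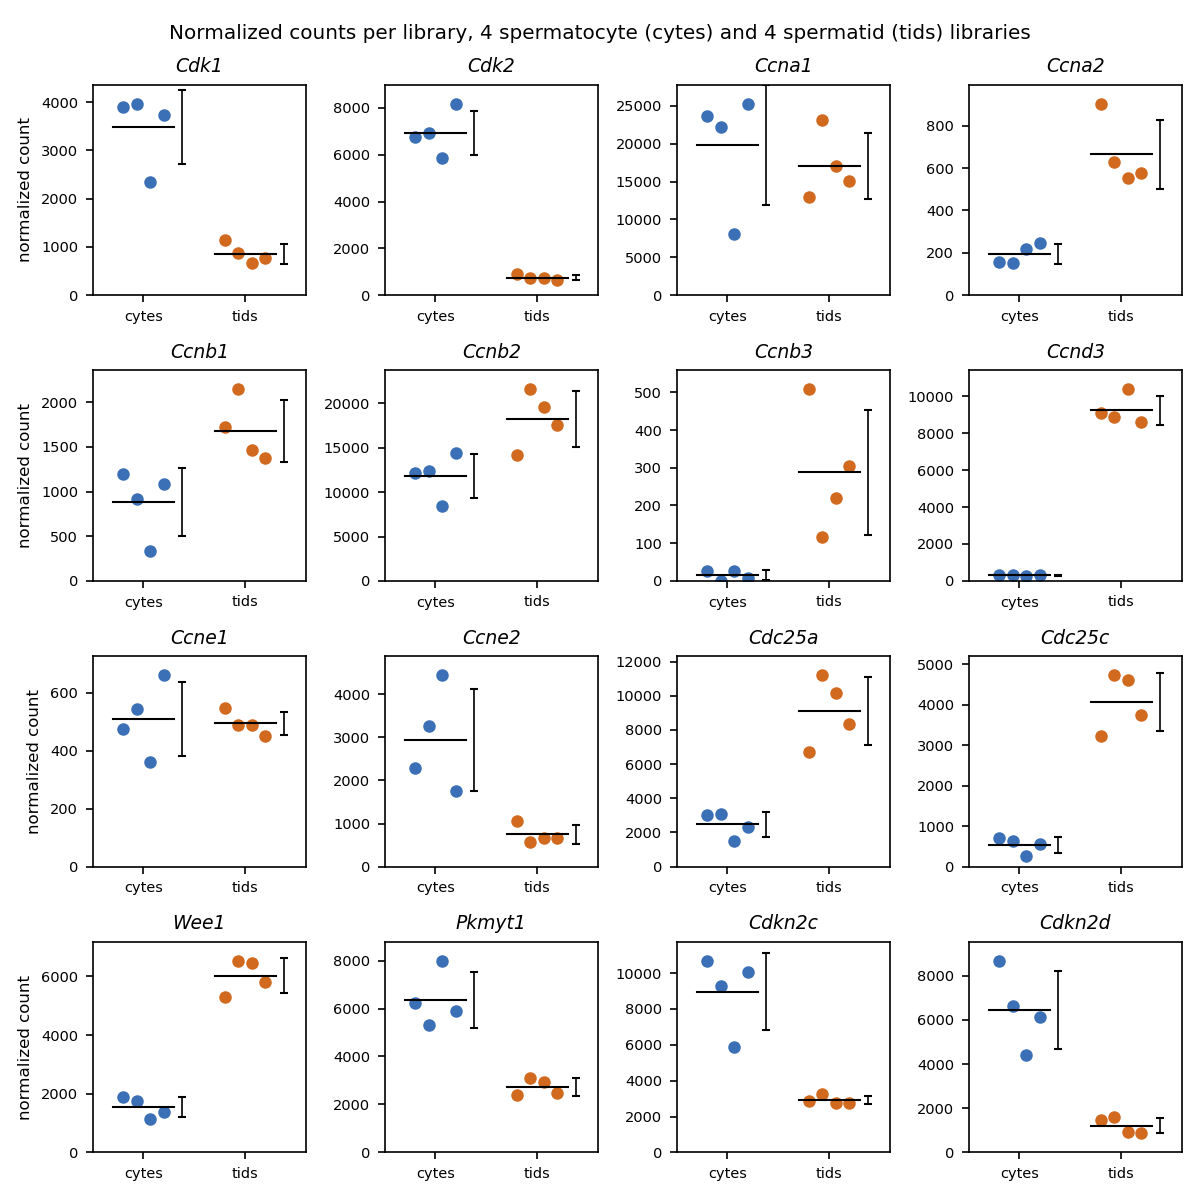
Normalized counts of 16 members in each library, with spermatocyte libraries (cytes) in blue and spermatid libraries (tids) in orange, in the order of their numbers, a line at the mean and a bar of ± 1 SD (n = 4). Cdk1, Cdk2, Pkmyt1, Cdkn2c and Cdkn2d lie lower in spermatids without overlap, Cdc25a, Cdc25c, Wee1 and Ccnd3 lie higher, and Ccna1 and Ccne1 overlap.

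Of the 3 D cyclins 2 rose and 1 was not called. Ccnd3, which activates CDK4 and CDK6 (chromosome 17, 47505051 to 47599686, plus strand), had 319, 293, 264 and 314 normalized counts in libraries 1 to 4 of spermatocytes and 9074, 8879, 10373 and 8629 in those of spermatids. Both groups were tight, with a coefficient of variation of 8.42% in each. The mean rose 31.0-fold (log2 change 4.95, SE 0.16, adjusted p = 9.5e-10 by limma). This was the largest rise over all 8 libraries, but Ccnb3 rose more without spermatocyte library 1 (log2 change 5.08 against 4.99), without library 3 (5.05 against 4.90) and without libraries 3 and 4 (5.08 against 4.91). The Ccnd3 model overlaps that of Bysl, which fell from a mean of 2590.4 to 890.1. Ccnd1 went from 42.8 ± 31.0 to 175 ± 44.8 (± SD of 4 libraries each; log2 change 2.19, SE 0.41, adjusted p = 4.3e-04 by limma) and was as high as 89.1 in spermatocyte library 4 alone. The macrophage and blood markers and the peritubular markers rose beside it. Over spermatid libraries 1 to 4 Ccnd1 had 225, 138, 201 and 136. The macrophage and blood sums were 6016, 3264, 3014 and 4790, and the peritubular sums 4097, 3180, 3196 and 3458, both in another order of libraries. The part of these cells in the rise of Ccnd1 was not tested. Ccnd2 was at 189.7 ± 49.8 and 205 ± 90.8 (± SD of 4 libraries each) and was not called (log2 fold change 0.03).

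Of 7 CDK inhibitors 3 fell, 1 rose and 3 were not called. Cdkn2c and Cdkn2d belong to the INK4 genes, whose products hold CDK4 and CDK6 inactive. Cdkn2d, encoding p19INK4d (chromosome 9, 21288410 to 21291209, minus strand), had 8677, 6651, 4405 and 6132 normalized counts in spermatocyte libraries and 1446, 1588, 943 and 877 in spermatid libraries. The spermatocyte values spread widely but stayed above all spermatids (log2 change -2.42, SE 0.25, adjusted p = 3.2e-06 by limma). Cdkn2c, encoding p18INK4c, fell with it from 8966 ± 2143 to 2927 ± 238 (± SD of 4 libraries each; log2 change -1.58, SE 0.20, adjusted p = 1.7e-05 by limma). Mice without both of these genes are known for male infertility. Cdkn1b, encoding the Cip/Kip inhibitor p27 (chromosome 6, 134920399 to 134925525, plus strand), had 209.5, 350.3, 1076 and 395 in spermatocytes and 96.7, 36.4, 75.1 and 119.7 in spermatids. Spermatocyte library 3 stood far above the rest, and the groups did not overlap (log2 change -2.47, SE 0.49, adjusted p = 6.0e-04 by limma). The Sertoli sums of spermatocyte libraries 1 to 4 were 25308, 43314, 128138 and 62941, in the same order of libraries as Cdkn1b. Without spermatocyte libraries 3 and 4 the log2 fold change of Cdkn1b was -1.84 and still called, and the part of Sertoli RNA was not tested. Cdkn3, a phosphatase that acts on CDKs, rose from 5867 ± 1576 to 15651 ± 1904 (± SD of 4 libraries each; log2 change 1.45, SE 0.22, adjusted p = 7.1e-05 by limma), and was at 0.91 and not called with quantile normalization. Cdkn1a (0.15), Cdkn2a (-0.47) and Cdkn2b (0.10) were not called on the log2 scale, with group means between 115 and 389.

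The enzymes that add or remove the inhibitory phosphates were all called, 4 upward and 1 downward, where 62.3% of all models were called. Cdc25c, on chromosome 18 (34732997 to 34751533, minus strand), had 708, 624, 256 and 556 normalized counts in spermatocyte libraries and 3223, 4725, 4595 and 3731 in spermatid libraries. The lowest spermatid library held more than 4 times the highest spermatocyte library (log2 change 3.0, SE 0.29, adjusted p = 1.7e-06 by limma). Cdc25a (chromosome 9, 109875577 to 109893888, plus strand) had 2998, 3069, 1514 and 2292 and 6694, 11209, 10175 and 8377, in the same order of groups. The groups lay apart, and the mean rose 3.69-fold (log2 change 1.91, SE 0.25, adjusted p = 2.0e-05 by limma). Cdc25b (chromosome 2, 131186946 to 131198511, plus strand) was scarce, with 24.2, 23.6, 48.1 and 33.1 in spermatocytes and 147, 104, 101 and 82.7 in spermatids. It rose as well (log2 change 1.75, SE 0.33, adjusted p = 4.7e-04 by limma), in a model that overlaps that of the more abundant Spef1 (means of 2891 and 1688), and with its highest value in spermatid library 1. Wee1 (chromosome 7, 110122056 to 110143299, plus strand), a nuclear kinase that opposes Cdc25, had 1897, 1762, 1154 and 1384 in spermatocytes and 5288, 6526, 6470.3 and 5811 in spermatids. It rose 3.89-fold without overlap (log2 change 1.98, SE 0.19, adjusted p = 1.5e-06 by limma). Pkmyt1, the membrane-bound kinase with the same target (chromosome 17, 23726334 to 23736742, plus strand), had 6229, 5318, 7986 and 5899 in spermatocytes and 2390.3, 3123, 2933 and 2466 in spermatids. It fell, again without overlap (log2 change -1.21, SE 0.18, adjusted p = 5.9e-05 by limma), and was at -0.94 and not called after the GC correction. Within a library, the log2 ratio of Pkmyt1 to Wee1 was 1.72, 1.59, 2.79 and 2.09 in spermatocyte libraries and -1.15, -1.06, -1.14 and -1.24 in spermatid libraries, a ratio that a scaling factor per library does not move. Pkmyt1 exceeded Wee1 in every spermatocyte library and lay under it in every spermatid library, as counts not divided by length.

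Ratios of other pairs of relatives within libraries are given as a description with no test. The log2 ratio of Ccne2 to Ccne1 went from 2.48 ± 0.91 in spermatocytes to 0.56 ± 0.30 in spermatids (± SD of 4 libraries each), and that of Cdk2 to Cdk1 from 1.01 ± 0.26 to -0.18 ± 0.19. The ratio of Ccnd2 to Ccnd3 went from -0.68 ± 0.39 to -5.60 ± 0.74. These ratios did not overlap between cell types, nor did that of Ccnt2 to Ccnt1 (-1.18 ± 0.61 and -4.51 ± 0.67). That of Ccna1 to Ccna2 was barely apart, at 5.197 in spermatocyte library 3 and 5.193 in spermatid library 2. The ratio of Cdk13 to Cdk12 also lay apart, but the means were near each other, at -0.36 ± 0.22 and 0.05 ± 0.10. Groups overlapped for Ccnb2 to Ccnb1, Ccnb3 to Ccnb1, Cdk6 to Cdk4, Cdc25c to Cdc25b and Cdk19 to Cdk8.

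The cyclins and CDKs of transcription and splicing made up 14 models, of which 3 rose, 1 fell and 10 were not called. The largest changes were in the subunits of P-TEFb, the kinase that releases paused RNA polymerase II, and they went opposite ways. Cdk9, its catalytic subunit (chromosome 2, 32705782 to 32713078, minus strand), had 2374, 2266, 2072 and 3408 normalized counts in spermatocyte libraries and 699, 550.4, 596 and 577 in spermatid libraries, falling 4.18-fold without overlap (log2 change -2.04, SE 0.20, adjusted p = 1.6e-06 by limma). Ccnt1, its main cyclin (coding model on chromosome 15, 98543211 to 98570923, minus strand), had 517, 737, 851 and 781 in spermatocytes and 4036, 5761, 6461 and 6219 in spermatids. It rose 7.79-fold (log2 change 2.96, SE 0.22, adjusted p = 1.4e-07 by limma). Ccnt2, the other P-TEFb cyclin, was at 336 ± 153 and 248 ± 71.2 (± SD of 4 libraries each) and was not called (log2 fold change -0.37). Ccnl1, a cyclin linked to splicing, rose from 2016 ± 318 to 6602 ± 1286 (± SD of 4 libraries each; log2 change 1.70, SE 0.20, adjusted p = 7.4e-06 by limma), and its relative Ccnl2 was not called (0.28). Ccnc, the cyclin of the Mediator kinases, had 565, 529, 513 and 139 in spermatocyte libraries, with library 4 far below the rest, and 886, 1038, 749 and 909 in spermatid libraries. Its call (log2 change 1.22, SE 0.39, adjusted p = 0.014 by limma) was lost without spermatocyte library 4 (0.73), without libraries 3 and 4 (0.70), after the GC correction (0.23), and with quantile normalization (0.86) or equal total reads (0.78). The Ccnc model overlaps that of Tstd3, which rose from a mean of 24.6 to 163.6, by 2.68 on the log2 scale. The part of Tstd3 reads in the rise of Ccnc was not tested.

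The remaining transcription members were not called. Cdk8 (-0.16) and Cdk19 (0.17) are the kinases that Ccnc activates in Mediator. Cdk12 (-0.59), Cdk13 (-0.18) and their cyclin Ccnk (0.60) act on elongating polymerase. Cdk7 (-0.80) and Ccnh (-0.94) form the kinase of TFIIH, which also activates other CDKs. Cdk7, Ccnh, Cdk12 and Ccnk passed the adjusted p below the fold threshold. Ccnh crossed the fold threshold with edgeR (-1.02), DESeq2 (-1.05), quantile normalization (-1.30), equal total reads (-1.38) and the GC correction (-1.58), and without spermatocyte library 1 (-1.04) or 4 (-1.19) or spermatid library 1 (-1.02) or 4 (-1.0). Cdk7 and Cdk12 crossed it with equal total reads (-1.23 and -1.03) and quantile normalization (-1.14 and -1.12), and Cdk7 also after the GC correction (-1.02).

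The second Ccnt1 model covers chromosome 15 from 98538691 to 98542626 and holds no coding base. By the GENCODE M21 annotation it lies wholly inside the 3′ untranslated region (UTR) of Ccnt1, downstream of the coding model. It had 769.7, 814, 935 and 462 normalized counts in spermatocyte libraries and 1316, 1217, 859 and 963 in spermatid libraries, and its groups overlapped. No call was made for it (log2 change 0.57, SE 0.25, adjusted p = 0.055 by limma), while the coding model was at 2.96. The log2 ratio of the 3′ model to the coding model was 0.57, 0.14, 0.14 and -0.75 in spermatocyte libraries and -1.62, -2.24, -2.91 and -2.69 in spermatid libraries. Every spermatid ratio lay below every spermatocyte ratio.

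Because of this, deposited models inside the 3′ UTR of a member and outside its coding model were looked up for all members. Only models that passed the filter on low values entered, and the search was made after the Ccnt1 values had been seen. There were 4, those of Ccnt1, Cdk6, Cdk1 and Cdk13, the last 3 without a symbol and all without a strand in the table. The Cdk6 3′ model (chromosome 5, 3525430 to 3530998) had 2403, 2576, 1517 and 1595 normalized counts in spermatocytes and 451, 702, 449 and 499.6 in spermatids. It fell (log2 change -1.93, SE 0.24, adjusted p = 1.2e-05 by limma) where the coding model, at -0.78, was not called. Its log2 ratio to the coding model went from 2.35 ± 0.50 to 1.20 ± 0.19 (± SD of 4 libraries each), without overlap. The Cdk1 3′ model (chromosome 10, 69335156 to 69336258) was sparse, at 51.6 ± 20.6 and 5.94 ± 2.93 (± SD of 4 libraries each), and fell (log2 change -2.97, SE 0.48, adjusted p = 1.3e-04 by limma) along with the coding model. Its spermatid values were 7.16, 1.87, 6.00 and 8.71, all under the filter of 10 normalized counts. It thus entered through its spermatocyte values alone, which favours a fall. The value of spermatid library 2 lay below the floor of 3 reads. The Cdk13 3′ model (chromosome 13, 17710726 to 17712086) was at 27.3 ± 14.2 and 28.8 ± 7.34 and was not called (log2 fold change 0.20). For Cdk1 and Cdk13 the ratios overlapped between cell types. A drop in the ratio is a change in reads over the distal region relative to the coding model, and poly(A) sites themselves were not measured.

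**Figure D3:**
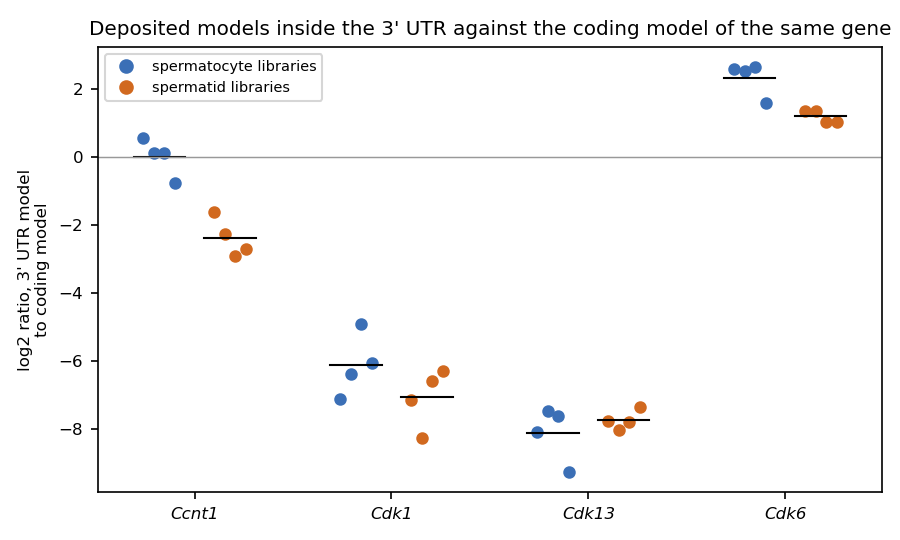
Log2 ratio, in each library, of the normalized count of a model inside the 3′ UTR to that of the coding model of the same gene, with a line at the mean of 4 libraries. The ratios of Ccnt1 and Cdk6 are lower in all spermatid libraries than in any spermatocyte library, and those of Cdk1 and Cdk13 overlap.

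Of the neuronal-type kinase Cdk5, the PFTAIRE and PCTAIRE kinases Cdk14 to Cdk18 and their activator cyclin Y, 3 rose, 2 fell and 2 were not called. Cdk16, an X-linked PCTAIRE kinase that mouse spermatids need to form normal sperm (chromosome X, 20687969 to 20699877, plus strand), had 753, 802, 2198 and 1568 normalized counts in spermatocyte libraries and 7160.2, 7631, 8901 and 8248 in spermatid libraries. Spermatocyte libraries 3 and 4 were the higher ones, and all spermatid libraries stood far above them. The mean rose 6.00-fold (log2 change 2.73, SE 0.31, adjusted p = 5.7e-06 by limma), and without spermatocyte libraries 3 and 4 the log2 fold change was 3.35. Both X-linked members, Cdk16 and Ccnb3, rose, as did 66.8% of 831 X-linked models. Cdk18, a PCTAIRE kinase (chromosome 1, 132113550 to 132139691, minus strand), had 143, 106, 126 and 153 in spermatocytes and 835, 728, 1243 and 1249 in spermatids, a 7.68-fold rise of the mean (log2 change 2.90, SE 0.25, adjusted p = 5.8e-07 by limma). Cdk15, a PFTAIRE kinase (chromosome 1, 59256907 to 59352448, plus strand), was low in spermatocytes, with 19.3, 13.7, 8.95 and 17.1, and had 237, 224, 333 and 286 in spermatids (log2 change 4.14, SE 0.32, adjusted p = 2.3e-07 by limma).

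The other PCTAIRE and PFTAIRE kinases were not called higher. Cdk17 was at 5733 ± 617 and 3217 ± 704 (± SD of 4 libraries each) and was not called (log2 fold change -0.85), except after the GC correction (-1.04) and with quantile normalization (-1.33) or equal total reads (-1.29). Cdk14 was not called either (-0.25). Ccny, the cyclin that recruits these kinases to membranes, fell from 5398 ± 574 to 2588 ± 327 (± SD of 4 libraries each; log2 change -1.06, SE 0.16, adjusted p = 8.4e-05 by limma). Ccnyl1, its relative outside the symbol rule, rose from 812 ± 109 to 3182 ± 468 (± SD of 4 libraries each; log2 change 1.97, SE 0.18, adjusted p = 1.1e-06 by limma). Cdk5 had 306, 448, 1526 and 896 in spermatocyte libraries and 281, 224, 317 and 325 in spermatid libraries, with overlap. It was called lower (log2 change -1.21, SE 0.42, adjusted p = 0.021 by limma), a call lost without spermatocyte library 3 (-0.81), without spermatocyte library 4 (-1.06), without both (-0.38), without spermatid library 2 (-1.10) and after the GC correction (-0.95). The Sertoli sum was highest in those spermatocyte libraries.

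Of 7 other cyclins and CDKs 2 rose, 2 fell and 3 were not called. Cdk20, a kinase linked to the cilium (chromosome 13, 64432541 to 64441265, plus strand), had 4083, 3876, 2657 and 4473 normalized counts in spermatocytes and 843, 1485, 992 and 855 in spermatids. It fell 3.61-fold without overlap (log2 change -1.87, SE 0.23, adjusted p = 1.3e-05 by limma). Cdk10, a kinase that pairs with cyclin M (chromosome 8, 123224841 to 123232255, plus strand), had 2705, 2409, 2036 and 3682 and 717, 989.7, 694 and 658, in the same order. It fell as well (log2 change -1.81, SE 0.22, adjusted p = 1.1e-05 by limma), while the overlapping model of Spata2l rose by 4.01 on the log2 scale. Ccng2, a cyclin tied to growth arrest (chromosome 5, 93267254 to 93276230, plus strand), had 102, 78.5, 176 and 129 in spermatocytes and 555, 599, 552 and 494 in spermatids. It rose 4.53-fold (log2 change 2.23, SE 0.27, adjusted p = 1.1e-05 by limma), and its relative Ccng1 was not called (0.56). Ccno, known from multiciliated cells, rose from 109 ± 18.1 to 242 ± 27.5 (± SD of 4 libraries each; log2 change 1.14, SE 0.24, adjusted p = 9.5e-04 by limma), and was not called with equal total reads (0.71) or quantile normalization (0.75). Ccni had the log2 change nearest to 0 of all members, with means of 34973 ± 5803 and 34588 ± 2959 (± SD of 4 libraries each; log2 change -0.0040). Ccnj, at -0.80, passed the adjusted p but not the fold threshold, and crossed both without spermatid library 1 (-1.04) and under quantile normalization (-1.18) or equal total reads (-1.23).

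Levels of different genes were compared per kilobase of exon, taken from protein-coding GENCODE transcripts inside each model. In spermatocytes the highest members were Ccna1 with 12548 ± 5034 normalized counts per kilobase, Ccni with 12472 ± 2069.6, Ccnk with 9653 ± 1693 and Ccnb2 with 7727 ± 1619.7 (± SD of 4 libraries each). In spermatids the same 4 led, in the order Ccnk (14617 ± 2722), Ccni (12335 ± 1055), Ccnb2 (11909 ± 2047) and Ccna1 (10808 ± 2744). Neighbours in either order differed by less than the larger of their SDs, except Ccnk against both Ccni and Ccnb2 in spermatocytes. Behind them came Cdkn2d (4699 ± 1279) and Cdkn2c (4160.4 ± 994) in spermatocytes, and Cdkn3 (7037 ± 856) and Ccnd3 (3783 ± 319) in spermatids. Ccnd3 moved from place 40 to place 6 of the 55 models, and Cdk2 from place 8 to place 30. Per kilobase, Ccnb2 exceeded Ccnb1 (376 ± 162 in spermatocytes and 716 ± 147 in spermatids) in both cell types. At the low end stood Ccnb3 in spermatocytes (3.34 ± 2.91) and Cdkn1b in spermatids (18 ± 7.78).

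**Figure D4:**
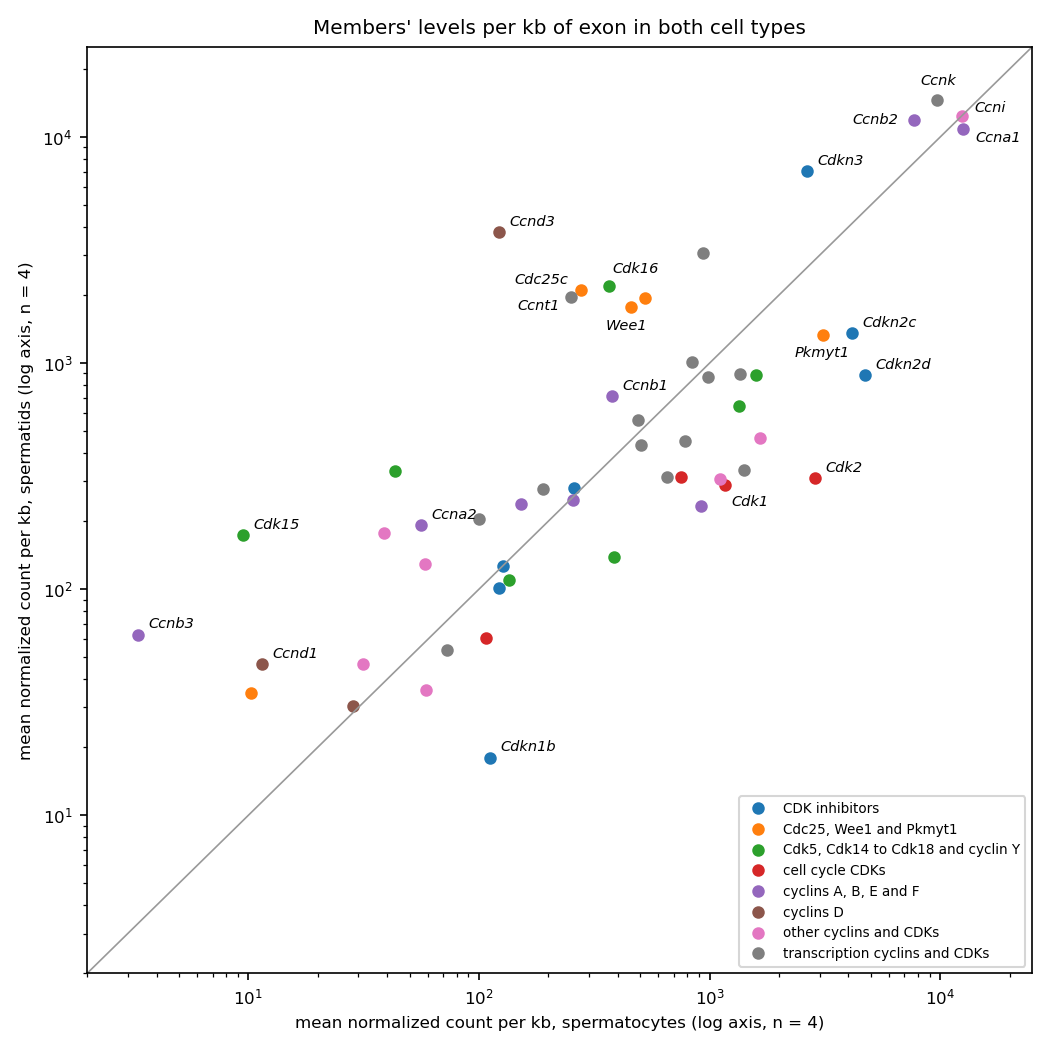
Mean normalized count per kilobase of exon in spermatids against that in spermatocytes for all 55 models, on log axes, coloured by role, with a line of equality and some members named. Ccnd3 lies far above the line and Cdk2 far below it, and Ccna1, Ccni, Ccnk and Ccnb2 share the top right corner.

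Among the spermatocyte libraries, library 3 departed most often. It held the lowest value of 28 members and the highest of 17. Against the mean of libraries 1 and 2, 14 members were lower by more than 1.5-fold, among them Ccnb1 (ratio 0.318), Ccna1 (0.350), Cdc25c (0.384), Ccnf (0.386) and Cdc25a (0.499). Of these 14, 6 were called higher in spermatids, where 32.5% of all models were. A low value in library 3 itself favours such a call. Another 12 members were higher by more than 1.5-fold, led by Cdk5 (4.05), Cdkn1b (3.84), Cdkn1a (3.11) and Cdk16 (2.83), beside a ratio of 3.74 for the summed Sertoli markers. Of these 12, 4 were called lower in spermatids, where 29.8% of all models were. A high value in library 3 likewise favours a call in that direction. The shares of all models that depart in library 3 are not given here. The genes named were picked after their values were seen. The part of Sertoli RNA in these differences was not tested.

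**Figure D5:**
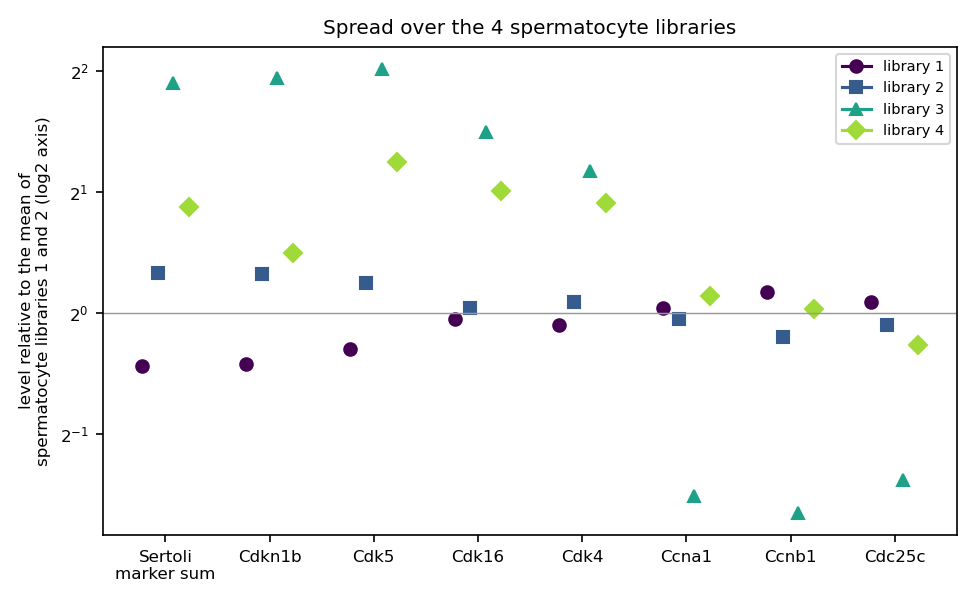
Level in each spermatocyte library relative to the mean of libraries 1 and 2, on a log2 axis, for the sum of 10 Sertoli markers and 7 members chosen after their values were seen. Library 3 (triangles) is highest for the Sertoli sum, Cdkn1b, Cdk5, Cdk16 and Cdk4, and lowest for Ccna1, Ccnb1 and Cdc25c.

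Genes around the CDKs were followed through 5 lists with 70 genes, of which 66 were matched and 65 tested. Over the lists 19 rose, 13 fell and 33 were not called, against the background of 32.5% higher and 29.8% lower, with a median log2 fold change of 0.13. Among 10 CDK partners 1 rose and 1 fell. The count of falls was 3 with equal total reads or quantile normalization, where Mnat1 and Cks1b were also called. It was 2 after the GC correction, without spermatocyte libraries 3 and 4, and without any single one of spermatocyte libraries 1 and 4 and spermatid libraries 1, 2 and 3. Cks2, a CDK-binding subunit that mouse spermatocytes need to leave the first meiotic metaphase, fell from 4812 ± 1082 to 536 ± 191 normalized counts (± SD of 4 libraries each; log2 change -3.19, SE 0.26, adjusted p = 3.5e-07 by limma). Cdk2ap1, a CDK2-binding protein, rose by 2.70 on the log2 scale. Hspa2, the chaperone that mouse spermatocytes need for the CDK1 and cyclin B1 complex, was at 200076 and 202988 and was not called (0.01).

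Of 20 genes of the retinoblastoma proteins, E2F factors and the DREAM complex, which set the transcription of cyclin genes in dividing cells, 7 rose and 5 fell, with a median of 0.33, and 8 fell with equal total reads or quantile normalization. The rises were led by Rbl2, encoding the retinoblastoma relative p130 (log2 fold change 4.32), and E2f5 (3.91), a repressor partner of such proteins. The falls were led by the E2F partner Tfdp1 (-3.35) and the DREAM subunit Lin52 (-3.33). Rbl2 went from 734 ± 288 to 14249 ± 3645 normalized counts (± SD of 4 libraries each). Of 14 kinases and phosphatases of entry into division 5 rose and 3 fell, with a median of 0.36. Cdc14a (4.90) and Cdc14b (4.66), phosphatases of CDK substrates, rose most, while Aurkb (-2.10), a kinase of the chromosomal passenger complex, and Ensa (-1.45), an inhibitor of the phosphatase that opposes CDK1, fell most.

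Of 9 genes for the destruction of cyclins and inhibitors 2 rose and 1 fell, with a median of 0.31. Skp2, which marks p27 for destruction (3.55), and Fzr1, the late activator of the anaphase-promoting complex (1.05), rose, and the early activator Cdc20 (-1.15) fell. The call of Fzr1 was lost under quantile normalization (0.49) and equal total reads (0.61), and without spermatocyte library 3 (0.81), spermatocyte libraries 3 and 4 (0.90), spermatid library 2 (0.97) or spermatid library 3 (0.97). That of Cdc20 was lost after the GC correction (-0.87) and without spermatocyte library 4 (-0.98). Of 12 relatives outside the symbol rule 4 rose and 3 fell, with a median of -0.07. The inhibitor gene Cdkn1c (2.34) was among those that rose. Fam58b, a cyclin-related gene (-2.43), and Cdkl4 (-2.24) fell most.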

How the data were processed

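Spermatocytes and spermatids of Sam68 -/- mice were profiled in 4 libraries each. Strand-specific poly(A) libraries were prepared from DNase-treated RNA, per the labels' protocols. Each value of the deposited signal equals a whole number of reads for a gene model over a size factor shared within its library. Coordinates are on mm10, and STAR 2.4.0, DESeq, SAMtools, Picard and FastQC were used, per the submitters' processing notes. How reads were counted, and with which strand setting, is not given in the sources used here, and 22 of the 55 members overlap another tested model, so reads of overlapping genes may be mixed. A further 8 columns of per-sample values were not used. Every value above 0 lay within 10% of a step from a whole number of reads (100% of values), which gave back the reads. The floor of 3 reads equals 2.42 to 4.50 normalized counts, covering counting error alone. Library numbers follow record order.

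The 28735 models that reached 10 normalized counts in 4 or more libraries entered limma 3.58.1 (R 4.3.3, trend and robust moderation) as log2(normalized count + 1), with Benjamini-Hochberg adjustment over all of them. Fold changes are on that scale, which understates low genes. Alternatives were other pseudocounts, filters and scalings, limma without trend, edgeR 4.0.16 and DESeq2 1.42.0 on the recovered reads, a correction for GC content that keeps each library's mean, and fits without libraries. Full values are given for the 8 largest rises and falls among called members and 14 core genes, and for the leading called genes of each list, of which 1 is not reported here. Where symbols recur in a list, the model with the highest mean was used. Members and lists were chosen with earlier results of these data known.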

Additional observations from a re-analysis of the deposited data

Results flagged for a closer look

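A library stood far from the other 3 of its group in 7 of 110 groups of 4 libraries, where chance gives about 1 in 20. In spermatocyte library 3, Cdk1 was at 2353 normalized counts against 3723 to 3968 in the others, and Cdk14 at 334 against 863 to 926. In spermatocyte library 4, Ccnc was at 139 against 513 to 565, and Ccnd1 at 89.1 against 24.2 to 32.4. In spermatid library 1, Ccnt2 was at 355 against 207 to 219, and Cdk12 at 5349 against 6193 to 6277. In spermatid library 2, Cdk7 was at 1085 against 824 to 851.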

How the results depend on the processing

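Of the 31 called members 24 and of the 24 others 17 kept their side of the threshold in all 22 alternatives, and no called member changed direction. The most members crossed the threshold with quantile normalization (10 of 55), equal total reads (9) and the GC correction (9). TMM and median-of-ratios scaling, other pseudocounts, other filters and limma without trend changed no member. Over all models, 14333 were called lower with no filter and 5470 with a filter of 50 normalized counts. Over the 17045 models with a GC value, a base added after seeing the data, 6015 were higher and 3591 lower, and 6073 and 3623 after the GC correction, where fewer models were tested. In the pathway lists 20 fell with equal total reads and 20 with quantile normalization. On the recovered reads edgeR called 9270 models higher and 8629 lower. With equal total reads 7990 models were higher and 10747 lower. No paired analysis was possible because the labels give no replicate numbers shared by the groups.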
